A study of Cucumis sativus with 2 samples.

Results

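The transcripts described here encode the ethylene receptors and the proteins that carry their signal to the transcription factor EIN3, in bending fruit of cucumber (Cucumis sativus) collected 2 days after anthesis. Members were found by the Arabidopsis locus that the deposited read table assigns to each cucumber gene, and every cucumber gene assigned to 1 of 10 loci was taken, without regard to its level. This gave 13 cucumber genes among the 20700 of the table. They cover 9 of the 10 loci, namely ETR1 (AT1G66340), ERS1 (AT2G40940), ETR2 (AT3G23150), CTR1 (AT5G03730), EIN2 (AT5G03280), EIN3 (AT3G20770), EIL1 (AT2G27050), EBF1 (AT2G25490) and EBF2 (AT5G25350). No gene of the table was assigned to EIN4 (AT3G04580), or to ERS2, the remaining Arabidopsis receptor. Gene names are those of the Arabidopsis homologue, and the functions given are those known from Arabidopsis.

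The study has 2 libraries of poly(A) RNA, 1 for the ventral and 1 for the dorsal side of such fruit, both untreated as far as the labels say. The labels do not give the cultivar, how many fruits went into a library or which side of the bend is the outer one. Its single comparison is between those sides. With 1 library per side there was no replicate check, so no p-value is given, and every interval below is a 95% counting interval that leaves out the spread between fruits.

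Ethylene is a gaseous hormone of plants that is made from the precursor ACC and acts in fruit growth and ripening and, in cucumber, in the formation of female flowers. Its receptors sit in the membrane of the endoplasmic reticulum and are active without the hormone, when they keep the kinase CTR1 at work. CTR1 phosphorylates EIN2 and holds it back. When ethylene binds, this brake is released, a part of EIN2 travels to the nucleus, and the transcription factors EIN3 and EIL1, which the F-box proteins EBF1 and EBF2 otherwise mark for degradation, accumulate and switch on target genes. In Arabidopsis the transcripts of ETR2, ERS1 and EBF2 are known to be raised by ethylene itself, whereas EIN3 is controlled mainly at the level of the protein.

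Read totals were 21863715 for the ventral and 11893394 for the dorsal library. Ratios are ventral over dorsal after scaling by the trimmed mean of M values (TMM), which put the ventral library at 2.16 times the depth of the dorsal one. A gene counted as measured with at least 20 reads over both libraries, which 17462 genes reached. It is called ventral-high here when its ventral level was 2-fold the dorsal one or more and the interval of the ratio left out equality, and dorsal-high in the opposite case. These words describe the 2 libraries. Ratios in the whole table moved with transcript length, measured here as the exonic length that reads and deposited RPKM (reads scaled per kilobase and per library size) imply. Spearman's rho of ratio and length was 0.39 across the 17462 genes, which are not independent. Each ratio is therefore also given with this trend subtracted. RPKM values and their sums keep the deposited scaling and not TMM, so they lie further to the ventral side than the ratios. For ETR2 the log2 ratio was 2.88 from RPKM and 2.62 after TMM. Among fruit markers, homologues of the carpel genes AG (Csa1G467100) and FUL (Csa1G039910) were at 77.5 and 80.6 RPKM in the ventral library and at 123 and 141 RPKM in the dorsal one. The carpel gene CRC (Csa5G606780) had only 10 ventral and 27 dorsal reads, and no gene was assigned to SHP1. Other genes of this list lay the other way, namely the SEP3 homologue (Csa6G095270), with 33 ventral reads and 1 dorsal read, and an SPT copy (Csa6G491000), with 52 and 8 reads. The other SPT copy (Csa2G356640) had 240 and 124 reads and a log2 ratio of -0.16 [-0.48 to 0.17], with an interval that held equality.

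All 11 measured genes of the pathway from receptors to EIN3 had a ratio above 1, and in 10 of them the interval lay wholly above 1. Of all measured genes, 50.5% had a ratio above 1 and 36.9% an interval wholly above 1. Of the 11, 8 were ventral-high, a call that 13.2% of all measured genes met. None was dorsal-high, a call that 11.5% of all measured genes met. The median log2 ratio of the 11 was 1.56, with a range of 0.13 to 2.62, beside a median of 0.01 over all measured genes. In order, the receptor gene ETR2 had the highest ratio, the EBF1 copies came next, EIN3 and ETR1 followed, then EIL1 and ERS1, and EIN2 and both CTR1 copies had the lowest. The remaining genes, an ETR1 copy and the EBF2 copy on unplaced scaffolds, had too few reads to be measured. Each of the 11 had at least 88 reads in the dorsal library, so none was measured through its ventral reads alone.

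Once the length trend was subtracted, 6 of the 11 were ventral-high, beside 10.9% of all measured genes, and none was dorsal-high, beside 8.35% of all. Those 6 were ETR2, EIN3, EIL1 and the 3 EBF1 copies. Exonic lengths of the 11 ran from 1296 to 4985 bp, and 10 of them lay in deciles 9 and 10 of the lengths of measured genes. In decile 9, from 2275 to 2850 bp, 19.4% of all genes were ventral-high, and in decile 10, from 2850 bp up, 34.9% were. Net of the trend, 8 of the 11 had a ratio above 1, all 8 with an interval wholly above 1, beside 49.8% and 33.8% of all measured genes. The median log2 ratio of the 11 was 1.26 with the trend subtracted, with a range of -0.74 to 1.92. Since whole tissue was sequenced, fewer cells of a type and less RNA per cell cannot be told apart in any of these ratios.

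**Figure D1:**
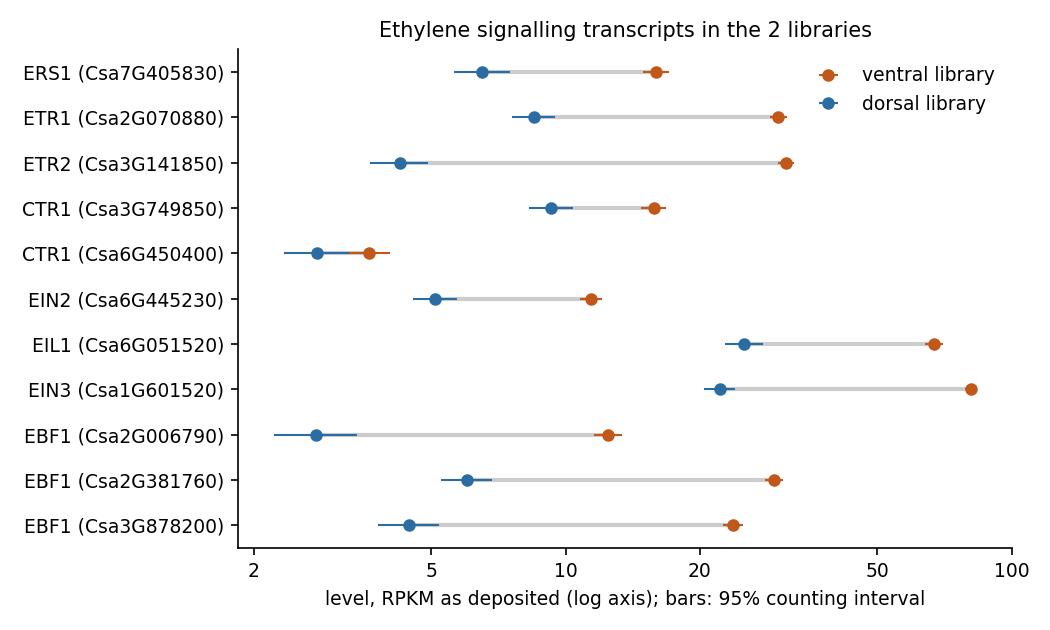
Deposited RPKM on a log axis for the 11 measured genes in the ventral (orange) and dorsal (blue) library, with bars for the 95% counting interval of the reads. The ventral point lies to the right of the dorsal one in all 11 genes. The gap is widest for ETR2, from 4.25 to 31.2 RPKM, and narrowest for the CTR1 copy on chromosome 6, from 2.77 to 3.63 RPKM.

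Receptors come in subfamilies that differ in their kinase domain. ETR1 and ERS1 belong to subfamily I, with a histidine kinase domain, and ETR2 to subfamily II, whose kinase domain is degenerate. ETR2 (Csa3G141850, chromosome 3) had 2362 ventral and 178 dorsal reads, or 31.2 and 4.25 RPKM. It was 6.14-fold higher in the ventral library, a log2 ratio of 2.62 [2.40 to 2.85], and this was the highest ratio among the 11 genes. Of the 17462 measured genes, 98.8% had a ratio at or below that of ETR2. Subtracting the length trend left a log2 ratio of 1.92 [1.70 to 2.15].

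ETR1 (Csa2G070880, chromosome 2), the founding ethylene receptor, had 2009 ventral and 315 dorsal reads, or 29.95 and 8.48 RPKM. Its ratio was 2.95-fold, 1.56 on the log2 scale [1.39 to 1.74]. ERS1 (Csa7G405830, chromosome 7), a receptor without the receiver domain that ETR1 and ETR2 carry, had 850 ventral and 192 dorsal reads, or 15.9 and 6.50 RPKM. Its ratio of 2.05-fold, or 1.04 [0.81 to 1.27], was just past the 2-fold limit. Net of the length trend, ETR1 at 0.97 [0.80 to 1.14] and ERS1 at 0.66 [0.43 to 0.89] no longer reached 2-fold, while their intervals stayed above equality.

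The second gene assigned to ETR1 (CsaUNG027950), on an unplaced scaffold and with a listed length of 1422 bp, had 3 ventral and 5 dorsal reads and is given without a ratio. The submitters' handling of reads that match more than 1 copy is not given in the sources used here.

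The makeup of the receptor pool differed between the libraries. The RPKM of the 4 receptor genes summed to 77.2 in the ventral library and 19.5 in the dorsal one. ETR2 held 40.4% of that sum in the ventral library and 21.8% in the dorsal one. ERS1 held 20.6% and 33.3%, and the measured ETR1 gene 38.8% and 43.4%. In reads, which does not depend on how the libraries are scaled, the log2 ratio of ETR2 was higher than that of ETR1 by 1.06 [0.77 to 1.34] and higher than that of ERS1 by 1.58 [1.26 to 1.91]. Net of the length trend these differences were 0.95 and 1.26. ETR1 in turn lay 0.53 [0.23 to 0.82] above ERS1, a difference of 0.31 with the trend subtracted.

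**Figure D2:**
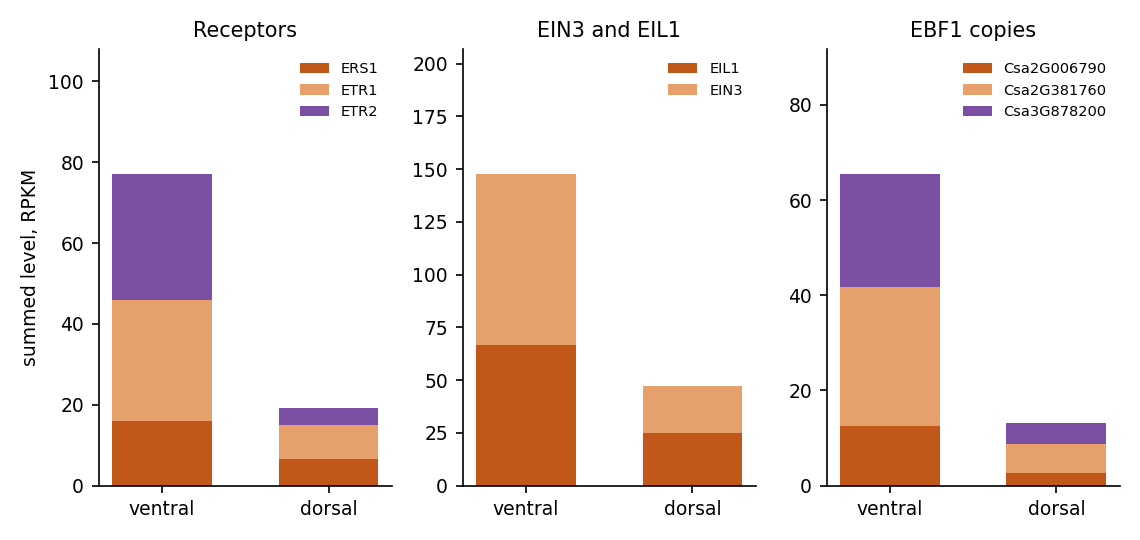
Deposited RPKM of the measured genes, stacked within each library, for receptors (left), EIN3 and EIL1 (middle) and the EBF1 copies (right), on linear axes that start at 0 and differ between panels. ETR2 takes 40.4% of the RPKM of all 4 receptor genes in the ventral library and 21.8% in the dorsal one. Those shares include the unmeasured ETR1 copy, which is not drawn. The EBF1 copies keep similar shares in both libraries.

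CTR1, the Raf-like kinase that represses the pathway, was represented by a pair of genes listed in the table under the synonym SIS1. The more abundant copy (Csa3G749850, chromosome 3) had 962 ventral and 314 dorsal reads, or 15.75 and 9.29 RPKM, and a log2 ratio of 0.50 [0.32 to 0.69]. The other copy (Csa6G450400, chromosome 6) had 339 and 143 reads, or 3.63 and 2.77 RPKM, and a log2 ratio of 0.13 [-0.15 to 0.43], with an interval that held equality. Neither was ventral-high. Both changed sign with the length trend subtracted, to -0.01 [-0.19 to 0.18] and -0.74 [-1.03 to -0.45].

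EIN2 (Csa6G445230, chromosome 6), the membrane protein that links CTR1 to the nucleus, had 1253 ventral and 311 dorsal reads, or 11.4 and 5.10 RPKM. Its log2 ratio was 0.90 [0.72 to 1.08], short of 2-fold. It has the longest transcript of the 11, at 4985 bp, and its ratio became -0.11 [-0.29 to 0.08] with the length trend subtracted. Scaled by total reads it was 1.13, past 2-fold.

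The summed receptor RPKM was 3.98 times the summed CTR1 RPKM in the ventral library and 1.62 times it in the dorsal library. In reads, ETR2 stood 2.11 [1.82 to 2.41] above the more abundant CTR1 copy on the log2 scale, ETR1 stood 1.06 [0.80 to 1.31] above it and ERS1 0.53 [0.23 to 0.83]. Net of the length trend they were 1.92, 0.97 and 0.66.

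**Figure D3:**
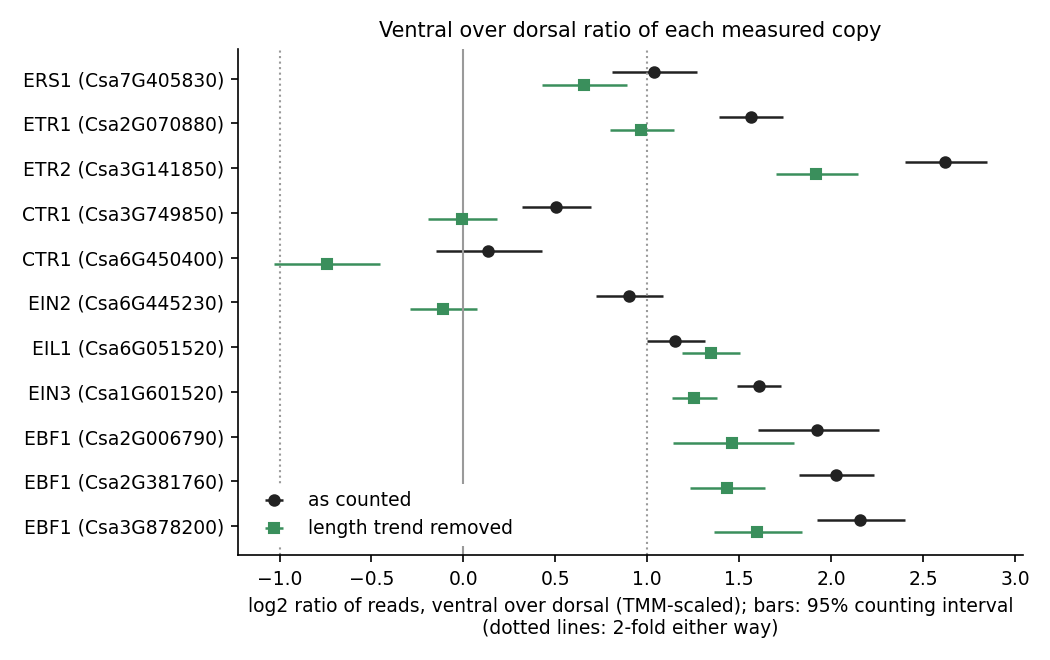
Log2 ratio of reads, ventral over dorsal, for the 11 measured genes as counted (black circles) and with the length trend subtracted (green squares), with 95% counting intervals and dotted lines at 2-fold. As counted, all 11 points lie above 0 and 8 lie past 2-fold. With the trend subtracted, ETR2, EIN3, EIL1 and the EBF1 copies stay past 2-fold, and both CTR1 copies and EIN2 lie below 0.

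EIN3 and EIL1 are paralogous transcription factors that bind the promoters of ethylene-response genes. EIN3 (Csa1G601520, chromosome 1) had 4197 ventral and 638 dorsal reads, or 80.85 and 22.1 RPKM, and a log2 ratio of 1.61 [1.49 to 1.73]. EIL1 (Csa6G051520, chromosome 6) had 1911 and 398 reads, or 66.9 and 25.15 RPKM, and was 2.22-fold higher in the ventral library, a log2 ratio of 1.15 [0.996 to 1.31]. Both were the most abundant transcripts of the pathway per length in both libraries. EIN3 was above EIL1 in the ventral library, with intervals that did not meet, whereas in the dorsal library EIL1 was nominally above EIN3 and the intervals overlapped.

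The log2 ratio of EIN3 exceeded that of EIL1 by 0.45 [0.25 to 0.65] as counted. After the trend was subtracted, EIN3 was at 1.26 [1.14 to 1.38] and EIL1 at 1.34 [1.19 to 1.50], so the order turned and the difference of -0.09 lay within counting error. EIL1 is the shortest of the 11 transcripts, at 1296 bp, and the only one whose ratio became higher with the trend subtracted.

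EBF1 and EBF2 are the F-box subunits of the ubiquitin ligase that degrades EIN3 and EIL1. The 3 genes assigned to EBF1, listed under the synonym FBL6, had ratios near one another. Csa3G878200 on chromosome 3 had 1533 ventral and 159 dorsal reads, or 23.7 and 4.46 RPKM, and a 4.46-fold ratio, 2.16 on the log2 scale [1.92 to 2.40]. Csa2G381760 on chromosome 2 had 1960 and 223 reads, or 29.3 and 6.01 RPKM, and a 4.07-fold ratio, 2.03 [1.82 to 2.23]. Csa2G006790, also on chromosome 2, had 720 and 88 reads, or 12.45 and 2.76 RPKM, and a 3.79-fold ratio, 1.92 [1.60 to 2.26].

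No pair of EBF1 copies differed in ratio beyond counting error, and the largest difference, between Csa3G878200 and Csa2G006790, was 0.24 [-0.18 to 0.64] on the log2 scale. Their shares of the summed EBF RPKM were also close, at 36.2%, 44.7% and 19.0% in the ventral library and 33.6%, 45.3% and 20.8% in the dorsal one, in the order above. Net of the length trend they were at 1.60, 1.43 and 1.46. The gene assigned to EBF2 (CsaUNG009930), on an unplaced scaffold, had 0 ventral reads and 1 dorsal read. A count of 0 allows up to 3 reads, or 0.137 CPM in the ventral library, so a difference was not detectable at this depth.

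Summed over copies, the EBF genes had 4213 ventral and 471 dorsal reads, a log2 ratio of 2.05 [1.91 to 2.19], and EIN3 with EIL1 had 6108 and 1036 reads, a log2 ratio of 1.45 [1.35 to 1.55]. The EBF genes together had 0.443 times the RPKM of EIN3 with EIL1 in the ventral library and 0.281 times in the dorsal library. The EBF1 copies lay above EIN3 by 0.55 [0.28 to 0.83], 0.42 [0.18 to 0.66] and 0.31 [-0.03 to 0.67], the last of which did not exceed counting error. Subtracting the length trend gave differences of 0.34, 0.18 and 0.21, of which only the first exceeded counting error. Above EIL1 the EBF1 copies lay by 1.01 [0.72 to 1.30], 0.87 [0.61 to 1.13] and 0.77 [0.41 to 1.14] as counted. Net of the length trend these differences were 0.25, 0.09 and 0.12, and none exceeded counting error. The summed log2 ratios, of the EBF genes and of EIN3 with EIL1, were then 1.49 and 1.27.

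Per length, the ventral library had EIN3 highest, followed by EIL1, and then ETR2, ETR1 and the EBF1 copy Csa2G381760, whose neighbours in that order overlapped within counting intervals. EBF1 copy Csa3G878200 came next. ERS1 and the CTR1 copy Csa3G749850 overlapped with each other, as did the EBF1 copy Csa2G006790 and EIN2, and the CTR1 copy Csa6G450400 was lowest. In the dorsal library ETR2 was in place 9 of the 11, against place 3 in the ventral library. There CTR1 copy Csa3G749850 and ETR1 followed EIN3, and from ERS1 down to ETR2 each gene overlapped with the next. ETR2 was at a higher RPKM than 73.1% of measured genes in the ventral library and 26.5% in the dorsal one. For EIN3 these values were 90.3% and 68.2%, and for the CTR1 copy Csa6G450400 they were 17.1% and 18.3%.

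Differences in ratio between the genes were compared over all 55 pairs of the 11, from reads alone. The interval left out equality in 47 pairs, and in 43 once intervals were widened for 55 comparisons (Bonferroni). With the length trend subtracted the order turned in 4 pairs, and ETR1 over EIL1 went from 0.41 to -0.38. Several more pairs then lay within counting error, among them each EBF1 copy over EIL1. ETR2 lay 0.46 [0.13 to 0.79] above the EBF1 copy Csa3G878200 as counted, but the widened interval held equality. EIN3 and ETR1 could not be told apart as counted, at a difference of 0.04 [-0.17 to 0.26], and neither could EIL1 and ERS1, at 0.12 [-0.17 to 0.40]. Net of the length trend these differences were 0.29 and 0.69, and both exceeded counting error. With only 2 libraries the pattern of a gene is 1 ratio, so likeness between genes says little. Within 0.1 (log2) of the ratio of ETR2 lay 50 other measured genes, and within 0.1 of that of EIN3 lay 312.

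**Figure D4:**
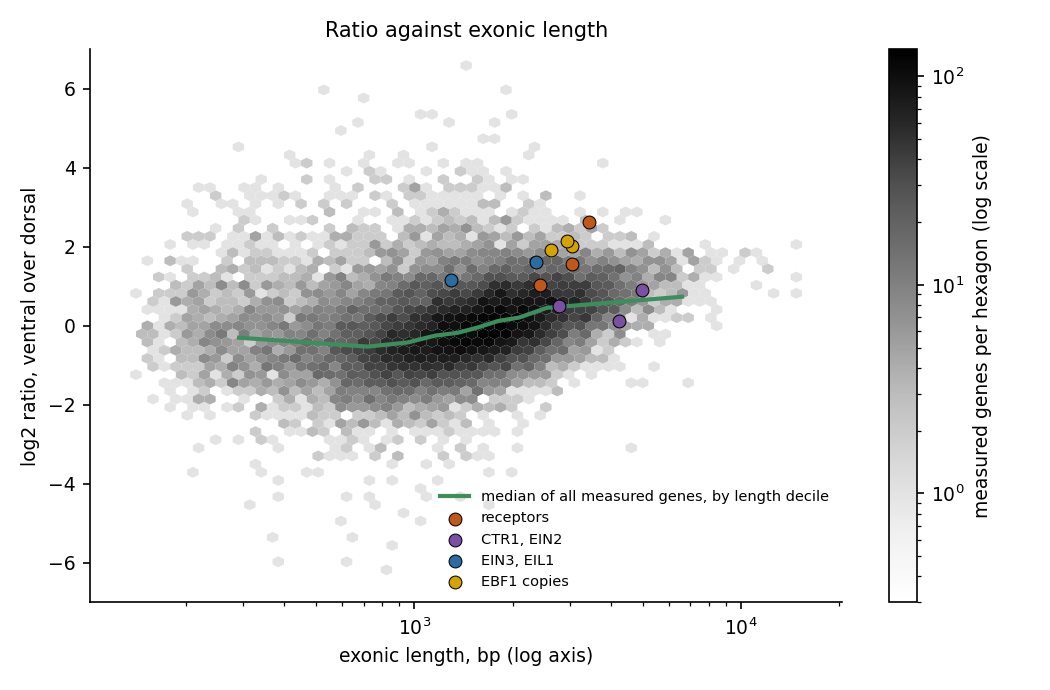
Log2 ratio, ventral over dorsal, against exonic length in bp (log axis) for 17462 measured genes (grey hexagons, darker for more genes), with the median in each decile of the lengths (green line) and the 11 pathway genes as coloured points. The median climbs from -0.53 in decile 2 to 0.74 in decile 10. ETR2, EIN3, EIL1, the EBF1 copies, ETR1 and ERS1 lie above the line, and the CTR1 copy of 4235 bp lies below it.

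Other genes of the pathway were taken by locus in 3 lists, of further signalling components, of ethylene synthesis and of early response factors. Of 35 measured genes in these lists, 10 were ventral-high, 1 was dorsal-high and 24 were neither, beside 13.2% ventral-high and 11.5% dorsal-high among all measured genes. The counts in the signalling and synthesis lists, 2 of 11 each, are near that ventral share. Subtracting the length trend left counts of 10 and 1, beside 10.9% and 8.35% of all measured genes, but changed which genes were called. RAN1 and RAP2.3 lost the call, while an ERF4 copy (Csa4G630010), from 0.53 to 1.01, became ventral-high and a CUL1 copy became dorsal-high. The other ERF4 copy (Csa7G049230) was ventral-high as counted, at 1.21 [0.87 to 1.56], and with the trend subtracted, at 1.67. The ERF4 copies were picked after their values were seen.

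Among 11 measured genes of further signalling components, 2 were ventral-high and none dorsal-high, and the median log2 ratio was 0.36. MPK3 (Csa1G479630), a stress-activated MAP kinase, had 2009 ventral and 196 dorsal reads, a log2 ratio of 2.25 [2.03 to 2.47], and 2.23 with the length trend subtracted. RAN1 (Csa6G526450), the copper transporter that supplies the metal cofactor of the receptors, had 1713 and 313 reads and a ratio of 1.34 [1.17 to 1.52], which was 0.61 and short of 2-fold with the trend subtracted. RTE1 (Csa4G646000), which promotes the function of ETR1, had 528 and 198 reads and a ratio of 0.30 [0.07 to 0.55]. CUL1, the scaffold of the ubiquitin ligase that EBF1 works in, had copies at 0.59 (Csa6G197230) and -0.78 (Csa3G153180), the latter at -1.17 and dorsal-high with the trend subtracted. RTE1 and CUL1 were picked after their values were seen, for their known ties to ETR1 and EBF1.

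Among 11 measured genes of ethylene synthesis, 2 were ventral-high and none dorsal-high, and the median was 0.43. ACS6 (Csa4G049610), an ACC synthase, had 665 ventral and 8 dorsal reads, a log2 ratio of 5.27 [4.28 to 6.48]. ACO1 (Csa2G000520), an ACC oxidase, had 176 and 33 reads and a ratio of 1.30 [0.76 to 1.89]. Both were ventral-high with the length trend subtracted as well, at 5.06 and 1.56. ACO1 was at 6.79 and 2.3 RPKM. ACO4, another ACC oxidase, had its most abundant copy (Csa6G160180) at 111 and 135 RPKM, with a log2 ratio of -0.54 [-0.62 to -0.46]. Other ACO4 copies were at -0.93 [-1.18 to -0.67] (Csa6G511860) and 0.43 [0.27 to 0.58] (Csa6G421630). None of the ACO4 copies was ventral-high or dorsal-high, as counted or with the trend subtracted. They were picked after their values were seen.

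Among 13 measured early response genes, 6 were ventral-high and 1 was dorsal-high, beside 13.2% and 11.5% of all measured genes. The median log2 ratio of the 13 was 0.60. Net of the length trend the median was 1.01, with 7 genes ventral-high and none dorsal-high, beside 10.9% and 8.35% of all measured genes. The EDF2 homologue (Csa5G608380), listed as TEM2, had 668 ventral and 30 dorsal reads and a log2 ratio of 3.37 [2.84 to 3.95]. ERF1, a direct target of EIN3 in Arabidopsis, had a copy (Csa3G389850) with 210 and 21 reads and a ratio of 2.21 [1.56 to 2.93]. EDF4 (CsaUNG031640), listed as RAV1, was at 1.82 [1.42 to 2.25].

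Other ERF1 copies, picked after their values were seen, had 224 and 29 reads (Csa3G135120, 1.84 [1.28 to 2.45]) and 19 and 0 reads (Csa2G177210, too few to be measured). A RAP2.3 copy (Csa6G318160) was the dorsal-high gene of this list, with 1313 ventral and 1427 dorsal reads and a ratio of -1.23 [-1.34 to -1.12], which was -0.89 and short of 2-fold with the trend subtracted. The other RAP2.3 copy (Csa4G001970) was at 0.52 [-0.54 to 1.71]. A copy of ERF1A (Csa5G165850) and the ERF2 homologue (Csa6G518290) were also below equality, at -0.26 [-0.57 to 0.05] and -0.11 [-1.42 to 1.32]. The other ERF1A copy (Csa3G017320) had 1614 ventral and 273 dorsal reads and was ventral-high. Its log2 ratio was 1.45 [1.27 to 1.64], and 1.78 with the trend subtracted. The ERF1A and ERF2 genes and this RAP2.3 copy were also picked after their values were seen.

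**Figure D5:**
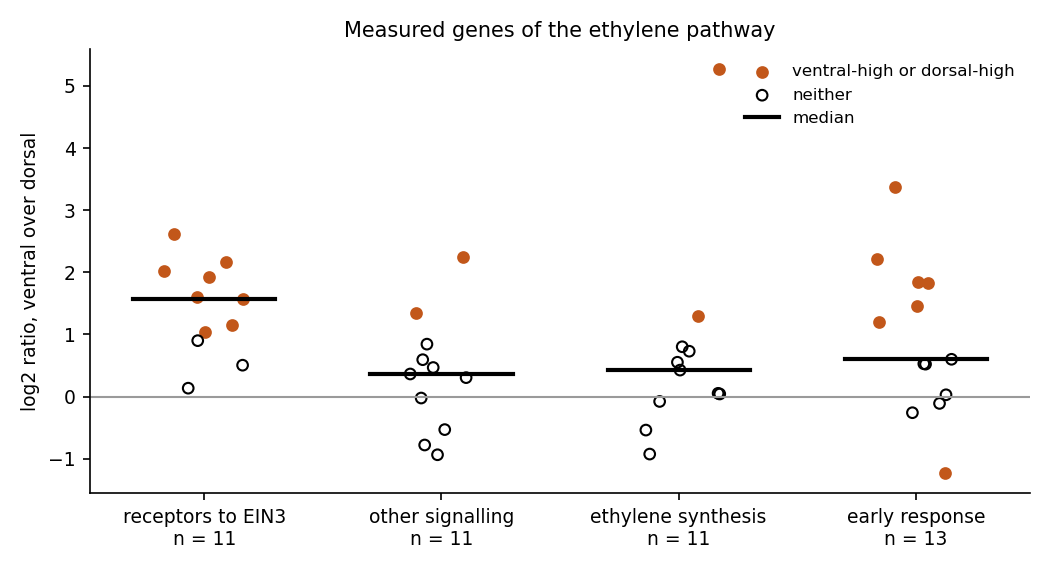
Log2 ratio, ventral over dorsal, of each measured gene from the receptors to EIN3 (11 genes) and of the further signalling (11), synthesis (11) and early response (13) lists. Filled points were ventral-high or dorsal-high, open points were neither, and black bars mark medians, which are 1.56, 0.36, 0.43 and 0.60.

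Markers of cell types were set beside these ratios, and their part in them was not tested. Their counts stand beside 13.2% ventral-high and 11.5% dorsal-high among all measured genes. All 3 measured xylem markers, out of 5 genes, were dorsal-high, and the RPKM of the list summed to 24.4 in the ventral library and 57.1 in the dorsal one. An XCP1 copy (Csa3G131910) was listed at 0 in the latter. Of 19 phloem markers 1 was ventral-high and 3 were dorsal-high, with summed RPKM of 7233 and 7964. The PP2-A1 copies Csa7G056500, at 4625 and 5641 RPKM, and Csa1G542510, at 1515 and 1220 RPKM, made up most of both sums. Epidermis markers, 5 measured of 6, had 1 ventral-high and 1 dorsal-high gene and sums of 61.2 and 43.2 RPKM. Ovule markers, 4 measured of 6, had neither kind and sums of 47.3 and 50.9 RPKM, with the defining gene INO at 1 and 0 reads in one copy and 3 and 2 in the other. Carpel markers, all 6 measured, had 2 ventral-high and 2 dorsal-high genes and sums of 168 and 272 RPKM.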

How the data were processed

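Poly(A) RNA was sequenced from 1 ventral and 1 dorsal library of bending cucumber fruit, made with a strand-specific kit per the labels' protocols. The authors deposited whole-number read counts per gene without normalization and, in a second table, RPKM values scaled for length and depth. The submitters' processing notes name TopHat2 and edgeR. The sources used here give neither the genome build nor the counter nor its strand setting. Groups came from the tissue label.

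From the counts, TMM scaling (edgeR 4.0.16, R 4.3.3) over genes with at least 20 reads gave ratios, with exact conditional binomial (Clopper-Pearson) 95% intervals (scipy 1.17.1). Intervals for a level are exact Poisson intervals of the reads on the RPKM scale, and differences between genes have exact conditional odds-ratio intervals. All cover counting error only and treat each read as independent. Amplified copies are not independent molecules, so the intervals can be too narrow even for counting error. Exonic length is reads over RPKM, with its constant set per library from the top of the ratio to listed length. Among 8625 genes with at least 10 RPKM in both libraries, 99.5% of lengths agreed within 1%. The length trend is a lowess fit (span 0.3) of log2 ratio on log2 length, and its own error is not in the intervals. The calculations were tested on simulated data. Alternatives were DESeq2 1.42.0 size factors, total reads, other minimums, a 99% interval, a 1.5-fold limit, the length trend and the deposited RPKM ratio.

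Members and lists were chosen with earlier results of these data known. The text names every copy of the 10 loci and, from the 3 other pathway lists, genes that are ventral-high or dorsal-high, or in a list with over 6 of these the 3 per direction whose interval bound lies farthest from equality. The RefSeq table at hand is of another build, holds none of the identifiers and was not used, and no sequence is printed.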

Additional observations from a re-analysis of the deposited data

How the results depend on the processing

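No paired analysis was possible because there is only 1 library per side, and no library could be left out. The counts of receptor-to-EIN3 genes (8 ventral-high, 0 dorsal-high) stayed within 1.5 times under all 8 alternatives. With total reads and with the RPKM ratio, EIN2 went past 2-fold (log2 1.13 and 1.16), and it was also called at a limit of 1.5-fold. With the length trend subtracted, the CTR1 copies (-0.0063 and -0.74), their sum (-0.21) and EIN2 (-0.11) changed sign, and receptor subfamily I summed over copies (0.85), ETR1 and ERS1 fell short of 2-fold. The cause of the length trend was not tested. Total reads raise every log2 ratio by the same amount, since they set the libraries 1.84 times apart in depth in place of 2.16. Among the 3 other pathway lists, the count of dorsal-high genes was 1, but 0 with total reads and with the RPKM ratio, and 4 at 1.5-fold. In all, 80 of the 88 values of single genes under alternatives kept their direction and their side of the limit. That count says little, since the other minimums, the wider interval and the 1.5-fold limit cannot change a ratio. DESeq2 size factors hardly move one, as they set the libraries 2.17 times apart in depth. Among the remaining values, 3 reversed and 2 fell short of the limit, all with the length trend subtracted. Depth limits the EBF2 copy and the second ETR1 copy, which had too few reads for a ratio.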
